A study of Mus musculus with 40 samples.

Results

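Antibiotics without morphine were compared with plain water in adult female mice, using every adult library whose label pairs a saline injection with water or with antibiotics. These were 10 of the 40 libraries of the series, 5 for each drink. The mice were wild-type C57BL/6J, a standard inbred strain, and their part of the experiment started on postnatal day 55. The control group drank water and received saline injections under the skin for 5 days. The treated group received oral antibiotics and the same saline injections, and neither group had morphine. The remaining libraries used beside them came from adults given morphine at 15 mg/kg on either drink, and from adolescents, started on postnatal day 25, on either drink with saline or with morphine at that dose. All 40 libraries entered the model. The sources used here do not name the antibiotics, the length of their use or the interval from the last injection to tissue collection. The tissue is labelled brain and the cell type label reads all, while the series title names the medial prefrontal cortex. Whether each library of a group is 1 mouse is not stated, and the p-values therefore reflect the spread between libraries, which may be technical.

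Oral antibiotics deplete the bacteria of the gut, and the prefrontal cortex is a region where myelin, microglial and synaptic genes have been studied in mice with few or no gut bacteria. Immediate early genes are transcribed within minutes of neuronal firing or another stimulus, without new protein being made first, and their messages are short-lived. They encode transcription factors such as Fos and Jun, and also regulators of messenger RNA decay, stress signalling and the extracellular matrix. Several carry cyclic AMP response elements near their start sites, the sequences bound by CREB, a factor that is switched on by calcium and cyclic AMP.

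Total counts of the 10 libraries lay between 9.10 and 10.38 M (M for mega). Levels are given as CPM, the counts of a gene per M counts of its library, and a floor of 3 counts equals 0.289 to 0.330 CPM, for counting error only. The tissue label was checked against defining markers. Slc17a7, the vesicular glutamate transporter of cortical excitatory neurons, was read at 1516 to 1815 CPM, and Tbr1, a cortical transcription factor, at 154.9 to 173.5 CPM. Drd1 and Adora2a, receptors abundant in the striatum, were at 5.63 to 16.03 and 1.86 to 3.25 CPM. The share of counts from mitochondrially encoded genes was 4.15% ± 0.50 (SD, n = 5) on water and 4.65% ± 0.51 (SD, n = 5) on antibiotics. That difference had an exact two-sided permutation p of 0.159, and 0.524 adjusted over 4 library measures, where the smallest p that 5 against 5 allows is 0.00794. On the first principal component of the 1000 most variable genes, with 17% of the variance, antibiotics replicate 3 stood apart. It lay at 22.2, against -7.81 to 5.86 in the other 9 libraries. It also had the fewest detected genes, 24271 against 25030 to 26045. The second component held 15.2%. There the water libraries lay at 0.591 to 10.8 and the antibiotics libraries at -17.1 to -0.612, replicate 5 being the lowest.

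Few genes separated adults on antibiotics from adults on water. Of 17880 genes tested, 9 passed (0.0503%), of which 7 fell (0.0391%) and 2 rose (0.0112%). Of the 7, the immediate early genes Btg2, Gadd45g and Ccn1 fell most, by 1.51, 0.91 and 1.21 on the log2 scale. Tob1, Mex3b, Rgs2 and Myl6 fell by 0.37 to 0.43. The 2 that rose were Frmd6, by 0.40, and 1110006O24Rik, a transcript known only by a clone name, by 2.46 from a level near the floor. In whole tissue, a lower level of a message cannot be told apart from fewer cells of the type that holds it. Genes passed at an adjusted p under 0.05 in edgeR's quasi-likelihood test, with Benjamini-Hochberg adjustment over all genes tested. Without adjustment, 1803 genes (10.1%) had a p under 0.05, 917 of them higher (5.13%) and 886 lower (4.96%).

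The stretches of 250 bases before the start sites of 4 genes that fell are shown because 3 of them hold a core of the cyclic AMP response element. They are Btg2, Ccn1 and Gadd45g, the 3 early genes that passed, and Myl6, the upstream of its 2 listed starts. Sequences are from RefSeq on build GRCm38.p6, written 5′ to 3′ on the strand of the gene. Capitals mark TGACGT or its reverse complement ACGTCA.
Btg2, chr1:134079156-134079405, - strand: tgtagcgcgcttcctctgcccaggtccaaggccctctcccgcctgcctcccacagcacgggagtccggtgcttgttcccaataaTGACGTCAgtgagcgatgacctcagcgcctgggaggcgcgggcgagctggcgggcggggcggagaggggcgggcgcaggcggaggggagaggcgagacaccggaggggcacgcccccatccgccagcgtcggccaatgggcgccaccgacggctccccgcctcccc
Ccn1, chr3:145649986-145650235, - strand: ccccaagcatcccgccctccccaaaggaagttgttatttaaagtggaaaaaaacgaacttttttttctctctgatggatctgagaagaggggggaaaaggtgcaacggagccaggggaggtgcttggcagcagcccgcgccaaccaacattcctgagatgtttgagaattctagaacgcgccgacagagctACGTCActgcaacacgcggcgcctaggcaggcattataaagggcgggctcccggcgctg
Gadd45g, chr13:51846425-51846674, + strand: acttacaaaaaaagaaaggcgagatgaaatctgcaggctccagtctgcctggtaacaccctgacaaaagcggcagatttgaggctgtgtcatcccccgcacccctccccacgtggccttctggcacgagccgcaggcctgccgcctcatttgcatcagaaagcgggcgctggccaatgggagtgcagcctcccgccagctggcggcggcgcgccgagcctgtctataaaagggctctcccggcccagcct
Myl6, chr10:128493887-128494136, - strand: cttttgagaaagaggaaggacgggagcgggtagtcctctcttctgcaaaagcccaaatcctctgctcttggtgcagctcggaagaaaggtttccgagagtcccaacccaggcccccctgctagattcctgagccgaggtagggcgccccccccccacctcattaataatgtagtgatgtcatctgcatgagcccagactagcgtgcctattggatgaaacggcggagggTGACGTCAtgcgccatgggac

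All 9 genes that passed had an entry in the promoter table, with 10 windows in all. TGACGT was looked for on both strands, and a TGACGTCA counts as a match on each of them. It was present before 5 of the 9 genes, namely Btg2, Myl6, Mex3b, Ccn1 and Rgs2, and in 6.47% of the 32851 windows of the same length in the table. Btg2 and Myl6 had the full palindrome TGACGTCA. No match was found before Gadd45g, Tob1, Frmd6 or 1110006O24Rik. The TATAA motif, also looked for on both strands, was present before 4 of the genes, Gadd45g, Ccn1, Tob1 and Myl6, against 22.8% of windows. For Myl6 it was found only at the second start, as the reverse complement TTATA. The CArG box, the site of serum response factor, was found only at the second start of Myl6, against 1.47% of windows. Its letters there include that TTATA. The counts are of genes, over all windows of each, while the percentages are of single windows not matched for GC content. These motifs were chosen after the genes were known, and the counts describe letters in these windows.

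Btg2 encodes a small protein of the BTG/Tob family, which slows cell division and recruits the deadenylase that shortens the tails of messenger RNAs. It was read at 25.3, 29.4, 34.9, 32.8 and 25.1 CPM in the 5 water libraries and at 11.3, 7.74, 10.2, 12.8 and 9.95 CPM in the 5 antibiotics libraries. The lowest water library lay well above the highest antibiotics library. The means were 29.5 ± 4.37 and 10.4 ± 1.87 CPM (SD, n = 5 each), a 2.84-fold lower level on antibiotics with a log2 change of -1.51 ± 0.19 (SE) and an adjusted p of 6.78e-05.

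Tob1, a second member of that family, fell by 0.41 ± 0.08 on the log2 scale (SE, edgeR adjusted p = 0.0227). Its water libraries were at 46.2, 43.4, 44.9, 44.0 and 51.5 CPM and its antibiotics libraries at 34.4, 31.6, 33.5, 37.9 and 35.7 CPM, again with no overlap. Of the 5 family members tested, these 2 passed, against 0.0391% of all genes in that direction. Btg1 was at 24.6 ± 2.26 CPM on water and 21.6 ± 2.68 CPM on antibiotics (SD, n = 5 each), with an adjusted p of 0.486. Tob2 was at 30.6 ± 3.12 and 27.3 ± 2.60 CPM, with an adjusted p of 0.591. Btg3, the remaining member, was at 6.88 ± 1.29 and 6.87 ± 0.91 CPM (adjusted p = 1.0). The family was chosen after the values were seen.

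Gadd45g is a stress-induced protein that binds and activates a kinase at the head of the p38 and JNK pathways. Its level was 10.4, 13.3, 16.3, 15.3 and 13.9 CPM on water and 5.59, 6.07, 6.88, 9.94 and 8.44 CPM on antibiotics. The groups came close, the lowest water library standing just above the highest antibiotics library, which was replicate 4. The model gave a log2 change of -0.91 ± 0.16 (SE), 1.88-fold lower, with an edgeR adjusted p of 0.00322. Its relative Gadd45b was at 13.4 ± 0.88 CPM on water and 12.1 ± 1.05 CPM on antibiotics (SD, n = 5 each) and did not pass, with an adjusted p of 0.744. Gadd45a was at 4.70 ± 0.83 and 4.56 ± 1.66 CPM (adjusted p = 0.967).

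Ccn1 encodes a secreted protein of the extracellular matrix that is made by vascular and stimulated cells. On water it was at 9.28, 10.1, 10.1, 9.74 and 12.5 CPM, and on antibiotics at 3.92, 4.08, 3.61, 5.02 and 5.63 CPM. No antibiotics library came near the water range. The level was 2.32-fold lower, a log2 change of -1.21 ± 0.24 (SE) with an edgeR adjusted p of 0.0227. Markers of vessel wall cells, fibroblasts and meninges had a median log2 change of -0.22 over 19 genes, 14 of them negative, and none of them passed. Without antibiotics replicate 3, a library that stood apart, that median was -0.40. Their summed level was 1134 to 1771 CPM on water and 1001 to 1645 CPM on antibiotics, none at 0, and their part in the Ccn1 result was not tested.

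Mex3b, an RNA-binding protein with a RING finger, was at 29.7, 31.2, 27.5, 30.5 and 28.1 CPM on water and 20.8, 24.9, 21.2, 24.4 and 17.5 CPM on antibiotics. Its log2 change was -0.43 ± 0.09 (SE, edgeR adjusted p = 0.0227), without overlap. None of its 3 relatives passed, and they differed in sign. Mex3d was at 25.1 ± 0.98 and 21.4 ± 2.28 CPM (SD, n = 5 each, adjusted p = 0.362), Mex3a at 4.50 ± 0.82 and 5.35 ± 1.03 CPM (adjusted p = 0.678) and Mex3c at 36.0 ± 2.22 and 35.8 ± 1.48 CPM (adjusted p = 0.984). Rgs2, which shortens signalling by Gq-coupled receptors, was at 36.2, 42.5, 44.4, 44.2 and 41.4 CPM on water and 32.1, 31.2, 32.4, 37.8 and 28.2 CPM on antibiotics. Its groups overlapped, since water replicate 1 lay below antibiotics replicate 4. It fell by 0.37 ± 0.08 on the log2 scale (SE, edgeR adjusted p = 0.0324).

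Myl6, the essential light chain of non-muscle and smooth muscle myosin, was at 134.5, 146.9, 145.8, 131.8 and 148.7 CPM on water. On antibiotics it was at 108.1, 113.8, 99.8, 120.8 and 102.8 CPM, all below the water range. The fall was 0.38 ± 0.07 on the log2 scale (SE, edgeR adjusted p = 0.0208). Its paralog Myl6b, at 17.2 ± 2.85 and 14.9 ± 1.05 CPM (SD, n = 5 each), did not pass, with an adjusted p of 0.581. The other chains of non-muscle myosin did not pass either and went both ways. The log2 difference was -0.24 for Myl9, -0.21 for Myl12a, -0.10 for Myh14, 0.03 for Myh10, 0.07 for Myl12b and 0.12 for Myh9, with adjusted p-values of 0.598 to 0.952.

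Frmd6, a FERM domain protein at cell junctions that acts in Hippo signalling, was at 46.7, 37.1, 38.6, 39.4 and 46.5 CPM on water and 56.0, 54.3, 51.3, 54.9 and 58.3 CPM on antibiotics. Every antibiotics library exceeded every water library, and the log2 change was 0.40 ± 0.08 (SE, edgeR adjusted p = 0.0263). 1110006O24Rik had raw counts of 3, 2, 6, 2 and 3 on water and 13, 14, 13, 25 and 23 on antibiotics. This corresponds to 0.326 ± 0.152 and 1.87 ± 0.653 CPM (SD, n = 5 each), with a log2 change of 2.46 ± 0.48 (SE, edgeR adjusted p = 0.0208). The gene falls outside the rule for named genes and was taken up after its values were seen, and whether its reads come from an overlapping gene on the other strand cannot be told without the strand setting of the counts. In 8 of the 9 genes that passed the 2 groups did not overlap, against 1.77% of all genes tested, 0.828% with antibiotics higher and 0.94% with antibiotics lower. The 9 were picked by their p in these same libraries, so this separation follows largely from the choice and adds no support.

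**Figure D1:**
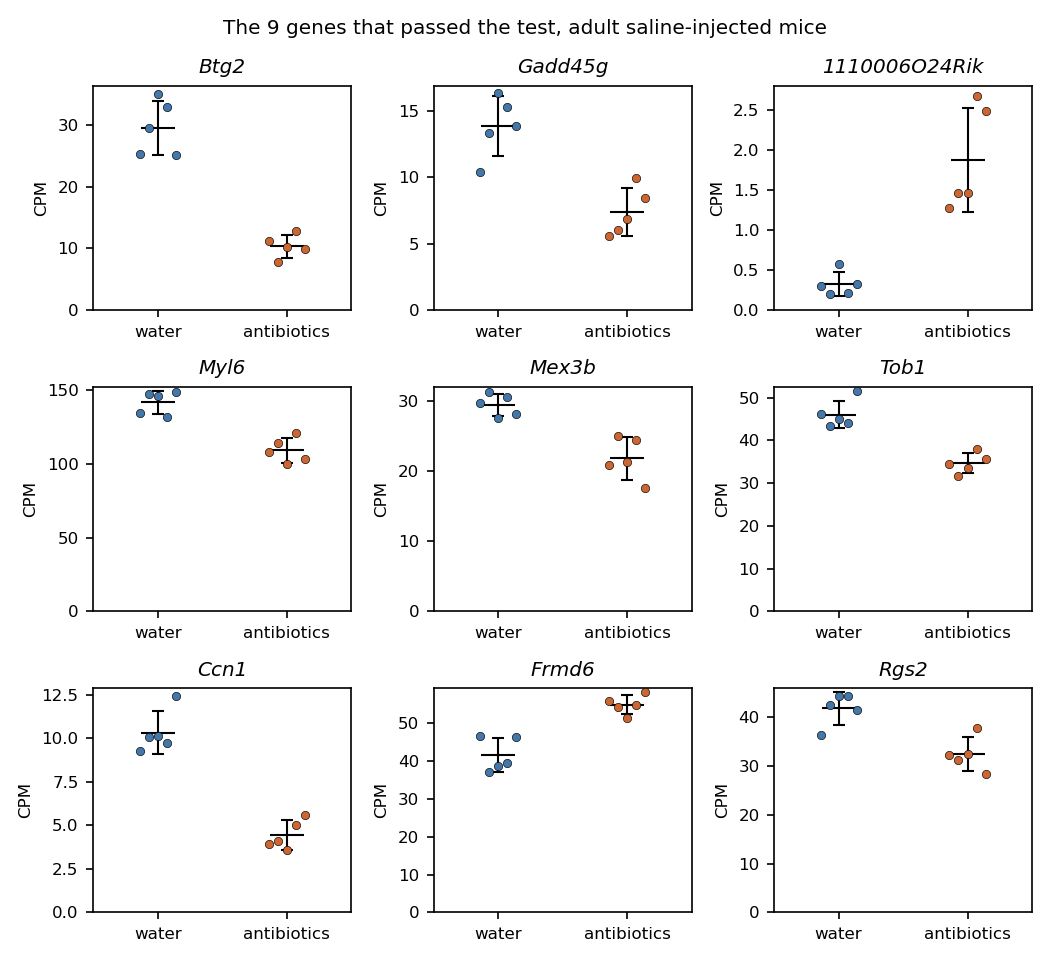
Level in CPM (vertical axes, from 0) of the 9 genes that passed the test, in adult saline-injected mice on water (blue) and on antibiotics (orange). Points are libraries, 5 a group, and bars are the mean and SD. The groups are separate in every panel except Rgs2, where water replicate 1 at 36.2 CPM lies below antibiotics replicate 4 at 37.8 CPM.

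Btg2 and Gadd45g passed without each of the 10 libraries in turn, with edgeR adjusted p-values of at most 0.000983 and 0.0306. The other 7 each lost their call in at least 3 of those fits, and the number of genes that passed moved widely. It was 2 without water replicate 2 or without antibiotics replicate 5, and 4 without water replicate 3, water replicate 4, antibiotics replicate 1 or antibiotics replicate 3. It was 6 without antibiotics replicate 2, 16 without water replicate 1 and 46 without antibiotics replicate 4, which had the highest levels of Btg2, Gadd45g, Rgs2 and Tob1 in its group. Fitted to the 2 groups alone, 15 genes passed, and Mex3b and Rgs2 did not, with adjusted p-values of 0.0763 and 0.0849.

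The same genes were then read in libraries outside the compared groups. Those libraries had entered the shared model, with its count filter and its estimate of the spread. In adolescents on saline, where 7 of the 17880 genes passed between antibiotics and water (0.0391%), 3 of them lower (0.0168%) and 4 higher (0.0224%), Btg2 fell as well. It was at 37.8 ± 6.64 CPM on water and 19.3 ± 3.31 CPM on antibiotics (SD, n = 5 each), a log2 change of -0.97 ± 0.18 (SE, edgeR adjusted p = 0.0265). Gadd45g had a log2 difference of -0.62 ± 0.15 (SE, adjusted p = 0.0933) and Ccn1 one of -1.0 ± 0.23 (SE, adjusted p = 0.0730) at that age, neither of which passed. Myl6, Tob1, Mex3b, Rgs2, Frmd6 and 1110006O24Rik had adolescent differences of 0.03, -0.05, -0.18, -0.10, 0.06 and 0.54 on the log2 scale, with adjusted p-values of 0.498 or more. The sign was that of adults for 8 of the 9 genes, all but Myl6, against 47.8% of the 1803 genes with an unadjusted p under 0.05 in adults and 49.3% of all genes tested.

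In adults given morphine, where 5 genes passed between the drinks (0.028%), none of the 9 did. The log2 difference was 0.04 ± 0.22 for Btg2 (SE, edgeR adjusted p = 0.985), 0.07 ± 0.17 for Gadd45g (adjusted p = 0.964) and -0.04 ± 0.30 for Ccn1 (adjusted p = 0.988). The sign matched in 4 of the 9 genes, against 60% of those 1803 genes and 53.3% of all genes tested. Across all genes tested, the Pearson correlation of the log2 differences in adults on saline was 0.0969 with adults on morphine and -0.0228 with adolescents on saline, as a description over genes, which are not independent replicates.

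Read as levels, the adult water and saline group was the high one for these early genes. Btg2 averaged 29.5 CPM there, against 10.4 CPM on antibiotics and saline, 9.56 CPM on water and morphine and 9.91 CPM on antibiotics and morphine, with ranges of 7.74 to 12.8, 5.46 to 13.99 and 7.57 to 13.9 CPM. Those 3 ranges overlap one another and lie below 25.1 CPM, the lowest library of the water and saline group. Gadd45g averaged 13.8 CPM in the water and saline group and 7.38, 6.78 and 7.11 CPM in the other 3 adult groups. For Ccn1 the means were 10.3, 4.45, 2.86 and 2.79 CPM in the same order, and the lowest antibiotics and saline library, at 3.61 CPM, stood above all 5 libraries on both antibiotics and morphine, the highest of which had 3.54 CPM. The comparisons between these adult groups share libraries with the one described here, so they add no independent support.

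**Figure D2:**
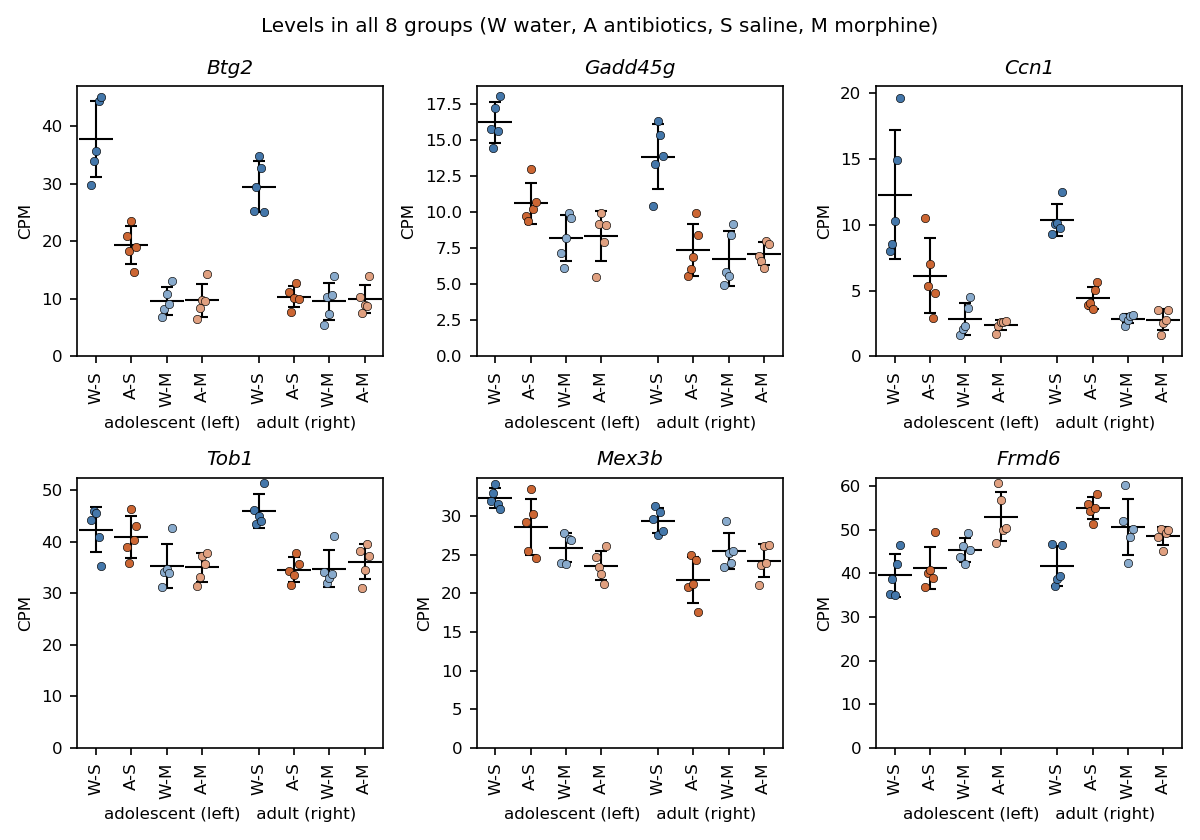
Level in CPM (vertical axes, from 0) of 6 of the 9 genes in all 8 groups, adolescents to the left and adults to the right, where W is water, A antibiotics, S saline and M morphine. Points are libraries, 5 a group, and bars are the mean and SD. For Btg2 the adult groups average 29.5, 10.4, 9.56 and 9.91 CPM from left to right, and the adolescent groups 37.8, 19.3, 9.64 and 9.75 CPM.

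The difference between the antibiotics effect in adults and in adolescents was tested as an interaction on the same model. It passed for 4 genes (0.0224%), and in all 4 the adult effect was the higher one. Neither these genes nor that direction held in every fit. Fitted to the 4 saline groups alone, none of the 4 passed: Csmd3, Fcho2 and Phc3 had edgeR adjusted p-values of 0.0620 to 0.0782, AC167245.1 did not pass the count filter, and the 1 gene that passed had the lower effect in adults. DESeq2 passed 42 genes, 11 with the adult effect higher and 31 lower, with 3 of the 4 among them, and without a filter on low counts the split was 15 and 34. None of the 9 genes above was among the 4 that passed in the main fit, where Btg2 had a difference of -0.53 ± 0.26 on the log2 scale (SE, edgeR adjusted p = 0.497). Csmd3, a large protein with CUB and sushi domains that is expressed in neurons, was at 33.1 ± 4.89 CPM on water and 40.03 ± 5.01 CPM on antibiotics in adults, and at 36.6 ± 3.35 and 27.1 ± 2.63 CPM in adolescents (SD, n = 5 each). Its difference of effects was 0.71 ± 0.14 (SE, adjusted p = 0.0383).

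Fcho2, which starts clathrin-coated pits, went from 40.7 ± 1.31 to 48.4 ± 5.55 CPM in adults and from 44.4 ± 3.26 to 36.6 ± 4.45 CPM in adolescents, with a difference of effects of 0.53 ± 0.11 (SE, edgeR adjusted p = 0.0393). Phc3, a subunit of the Polycomb repressive complex PRC1, went from 70.7 ± 4.38 to 79.6 ± 4.06 CPM in adults and from 74.9 ± 4.57 to 61.5 ± 6.33 CPM in adolescents, a difference of 0.46 ± 0.09 (SE, adjusted p = 0.0393). The last was AC167245.1, known only by a clone accession, with raw counts of 1, 1, 1, 1 and 5 on water and 12, 11, 7, 3 and 7 on antibiotics in adults. Its fitted difference of 4.68 ± 0.89 (SE, adjusted p = 0.0383) rests on levels near the floor, including adolescent antibiotics libraries at 0. In neither age alone did any of the 4 pass, their adult adjusted p-values running from 0.117 to 0.343. The number of genes that passed was 0 without adult water replicate 3, adult antibiotics replicate 3, adolescent water replicate 2, adolescent antibiotics replicate 1 or adolescent antibiotics replicate 2.

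For the difference between the antibiotics effect under morphine and under saline in adults, 0 genes passed (0%) in edgeR's test, with 1214 at an unadjusted p under 0.05 (6.79%), 1 gene passing in DESeq2 and 0 in limma-voom. Btg2 had the smallest p, with a difference of 1.55 ± 0.29 on the log2 scale (SE) and an edgeR adjusted p of 0.104. Gadd45g followed the same direction at 0.98 ± 0.23 (SE, adjusted p = 0.391). On the negative side stood Arid3b, a DNA-binding protein of the ARID family, at -1.04 ± 0.24 and Rps6ka3, a kinase of the ERK pathway, at -0.42 ± 0.10, each with an adjusted p of 0.391. For Arid3b the drinks differed by 0.52 on saline and by -0.52 on morphine on the log2 scale.

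Immediate early genes as a list had 31 members tested of 32. Of these, 3 passed and all 3 fell, Btg2, Gadd45g and Ccn1, against 0.0391% of all genes tested. Among the 31, 25 had a negative log2 difference (23 to 26 under the alternatives and without each library in turn, where Ier5, Jund, Nr4a3 and Fosl2 turned sign in at least 1 fit) and the median was -0.26, where the median of all genes was 0.01 and 51.4% of genes were positive. In 7 of the 31 the antibiotics libraries all lay below the water libraries, against 0.94% of all genes. The 3 genes that passed are among both the 25 and the 7, and the list was chosen with earlier results of these data known. The summed level of the list overlapped between groups, at 2023 to 2732 CPM on water and 1897 to 2504 CPM on antibiotics.

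The classical transcription factors of the list did not pass. Jun was at 50.1, 62.2, 63.1, 63.2 and 64.5 CPM on water and 39.1, 47.9, 44.7, 46.6 and 46.9 CPM on antibiotics, without overlap, with a log2 difference of -0.43 ± 0.10 (SE, edgeR adjusted p = 0.0671). Fos was at 31.1, 39.1, 36.3, 42.9 and 54.7 CPM on water and 29.8, 22.6, 19.4, 42.1 and 28.8 CPM on antibiotics, with broad overlap and an adjusted p of 0.421. Npas4, which neurons switch on with calcium entry, was at 38.6, 38.7, 38.2, 50.01 and 62.9 CPM on water and 15.1, 14.4, 12.8, 34.5 and 25.1 CPM on antibiotics. Its groups did not overlap, yet its spread was wide, and the difference of -1.16 ± 0.35 (SE) had an adjusted p of 0.219.

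Ier2 gave -0.54 ± 0.16 on the log2 scale (SE, edgeR adjusted p = 0.179), also without overlap. Smaller negative values were seen for Fosb (-0.36), Dusp1 (-0.36), Klf2 (-0.37), Junb (-0.27), Arc (-0.26) and Egr1 (-0.25), with adjusted p-values of 0.320 to 0.768. Klf10 was among the 6 members with a positive difference, at 0.26 ± 0.09 (SE, adjusted p = 0.306), and in adolescents it rose by 0.53 ± 0.09 (SE, adjusted p = 0.00673). Antibiotics replicate 4 had the highest level in its group for Btg2, Gadd45g, Fos, Npas4, Dusp1 and Junb. The list's median was -0.05 in adults on morphine and -0.02 in adolescents on saline.

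**Figure D3:**
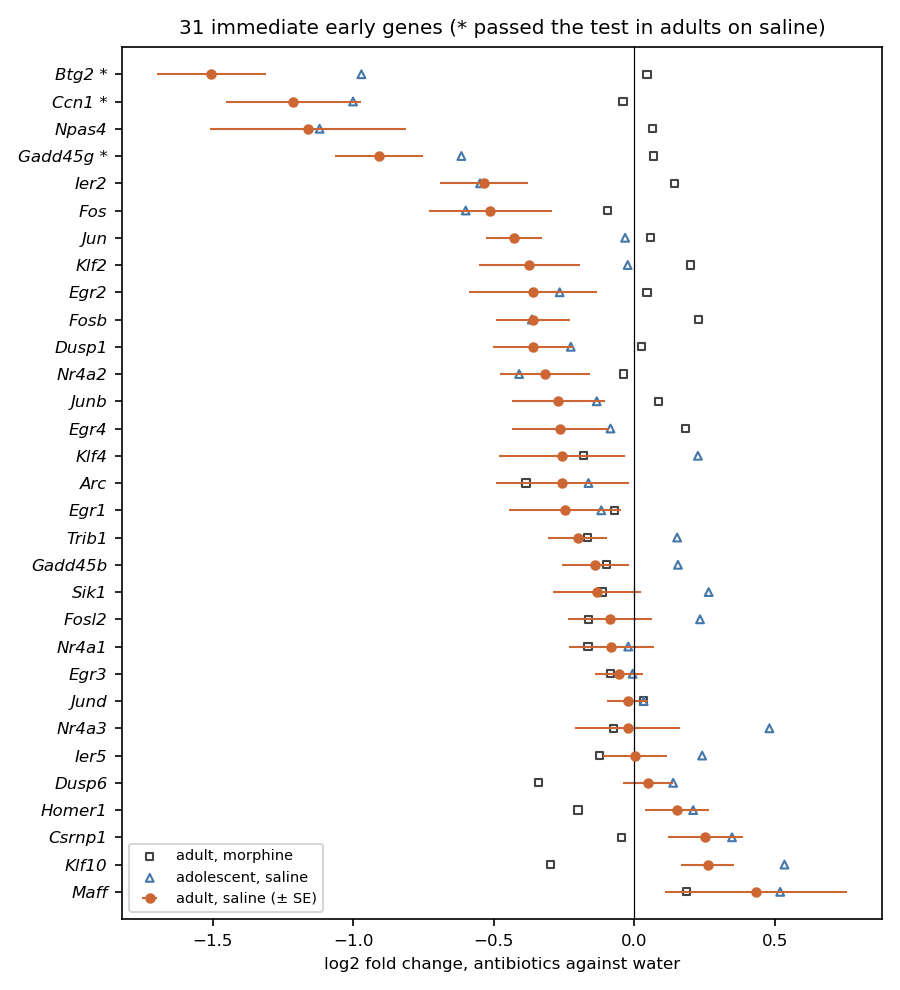
Log2 fold change of antibiotics against water (horizontal axis) for the 31 immediate early genes tested, in adults on saline (orange circles with SE), adults on morphine (grey squares) and adolescents on saline (blue triangles). Stars mark the 3 genes that passed in adults on saline. From Btg2 to Fos the circles and triangles both lie at -0.51 or lower and the squares between -0.10 and 0.14.

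No member of the other lists passed. Nuclear-encoded subunits of the mitochondrial respiratory chain and ATP synthase had a median log2 difference of -0.13 over 73 genes, 9 of them positive. Atp5k, a small subunit of ATP synthase, was at 25.6, 26.1, 28.5, 19.6 and 25.1 CPM on water and 15.2, 17.3, 10.5, 19.0 and 13.5 CPM on antibiotics, with no overlap. Its difference of -0.73 ± 0.17 (SE) had an edgeR adjusted p of 0.0775, and that of Cox5b, a subunit of complex IV, was -0.35 ± 0.10 (adjusted p = 0.163). The list's median was 0.09 in adolescents on saline, with 68 of 73 positive, and 34 members had a lower effect in adults than in adolescents at an unadjusted p under 0.05, against 4.87% of all genes tested.

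Cytosolic ribosomal proteins had a median of -0.10 over 75 genes, 13 of them positive, and Rps29 was at 72.9 ± 8.54 CPM on water and 46.4 ± 6.70 CPM on antibiotics (SD, n = 5 each), with an adjusted p of 0.138. The 13 mitochondrially encoded genes went the other way from the nuclear ones, with a median of 0.14, 8 of them positive and mt-Nd6 at 0.35 ± 0.12 (SE, adjusted p = 0.274).

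Antibiotics replicate 3 was the library that stood apart on the first principal component. Without it, the medians were -0.10 for the respiratory list and -0.10 for the ribosomal proteins. They were 0.13 for the mitochondrially encoded genes and -0.21 for the immediate early genes. That fit was added after the data were seen.

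Many respiratory and ribosomal transcripts are short, and the differences moved with transcript length and with GC content. Of the 73 respiratory genes 51 (69.9%), and of the 75 ribosomal genes 53 (70.7%), were in the group of shortest transcripts described next. The 17448 genes with a known length were split into 5 equal groups by length, and the median log2 difference in adults on saline was -0.02 in the group of shortest and 0.04 in that of longest transcripts. Adolescents on saline had 0.01 and -0.02 there, and adults on morphine -0.01 and -0.02. In 5 equal groups by GC content, the median in adults on saline ran from 0.05 at the lowest to -0.02 at the highest. Within libraries, the median deviation from the average library in the shortest group was set against that in the longest. In adults on saline, shortest minus longest was -0.03 to 0.05 on water and -0.13 to 0.01 on antibiotics, lowest in antibiotics replicate 3. In adults on morphine it was -0.19 to 0.05 on water and -0.10 to 0.02 on antibiotics. The part of transcript length and GC content in these 2 lists was not tested. With an offset for length and GC content added after the data were seen, all 9 genes described above still passed.

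**Figure D4:**
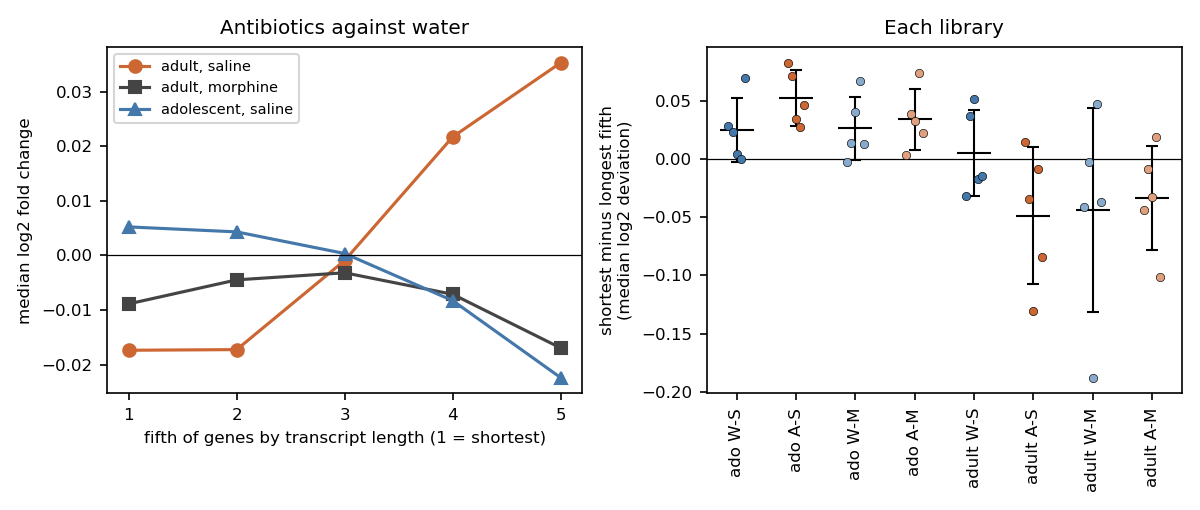
Left, median log2 fold change of antibiotics against water (vertical axis) in 5 equal groups of genes by transcript length (1 is the shortest), in adults on saline, adults on morphine and adolescents on saline. Right, for each library, the median log2 deviation of the shortest group minus that of the longest, where points are libraries and bars the mean and SD. The curve of adults on saline runs from -0.02 to 0.04, and antibiotics replicate 3 is the lowest adult saline library at -0.13.

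Markers of cell types showed small differences. Myelin and oligodendrocyte genes had a median of 0.08 over 20 genes, 17 of them positive, and a summed level of 1152 to 1280 CPM on water and 998.5 to 1563 CPM on antibiotics. Mbp, a main protein of myelin, was at 434.4, 481.4, 508.0, 501.1 and 451.9 CPM on water and 533.7, 603.7, 357.7, 469.9 and 494.2 CPM on antibiotics, where the groups overlap in full. Its log2 difference was 0.05 ± 0.16 (SE, edgeR adjusted p = 0.954). Microglial markers had a median of -0.04 over 20 genes and astrocyte markers one of 0.02 over 17. Without antibiotics replicate 3, which had the lowest Mbp level, the medians were 0.15 for myelin, -0.09 for microglial and -0.03 for astrocyte genes, the last with its sign turned.

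Markers of interneurons were positive in 14 of 18. At an unadjusted p under 0.05 in edgeR's test 5 were higher and 2 lower, against 5.13% and 4.96% of all genes. Their summed level was 1977 to 2156 CPM on water and 2027 to 2110 CPM on antibiotics, within the water range. Gad1, which makes GABA and had the smallest p of the list, was at 243.2 ± 16.9 CPM on water and 277.4 ± 15.0 CPM on antibiotics (SD, n = 5 each, edgeR adjusted p = 0.225). Of the markers of cortical layers 2 to 4, 10 of 12 were positive, against 3 of 17 for layers 5 and 6. Foxp2, a transcription factor of deep layer neurons, was at 11.2 ± 0.71 CPM on water and 7.12 ± 1.06 CPM on antibiotics (SD, n = 5 each), with a difference of -0.65 ± 0.21 (SE, edgeR adjusted p = 0.256). Endothelial barrier genes had a median of 0.01 over 19, and -0.05 without antibiotics replicate 3, and GABA receptor subunits one of 0.06 over 14, and 0.04 without that library.

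Innate immune and interferon genes, which respond to bacterial products, did not pass either. The interferon list had a median of -0.12 over 24 genes, 8 of them positive, and the list of NF-kB and cytokine genes one of 0.13 over 20, 15 of them positive. Without antibiotics replicate 3 these medians were -0.25 and 0.04. Sensors and transporters of microbial metabolites had a median of -0.05 over 11 of 20 listed genes that could be tested, and Slc16a1, a carrier of lactate and other monocarboxylates, was at 28.9 ± 2.21 CPM on water and 33.2 ± 3.36 CPM on antibiotics (SD, n = 5 each, adjusted p = 0.473).

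Among opioid genes, Oprm1, the receptor that morphine acts on, was at 4.54, 4.53, 3.58, 6.46 and 5.09 CPM on water and 2.94, 4.08, 3.16, 4.59 and 5.52 CPM on antibiotics, with an edgeR adjusted p of 0.740. Penk, the precursor of enkephalins, was at 28.5 ± 1.02 and 30.3 ± 5.93 CPM (SD, n = 5 each), with an adjusted p of 0.900. The median of the 8 opioid genes was -0.09, with 3 positive, and -0.16 without antibiotics replicate 3.

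Clock genes had a median of 0.05 over 21, 15 of them positive, and 6 had a higher level at an unadjusted p under 0.05, against 5.13% of all genes. Per1, a repressor in the clock that glucocorticoids and cyclic AMP also induce, was at 132.6, 95.0, 102.9, 115.1 and 123.3 CPM on water and 158.1, 142.3, 142.3, 178.5 and 149.7 CPM on antibiotics. These did not overlap, and the difference of 0.44 ± 0.12 (SE) had an edgeR adjusted p of 0.138. Bhlhe40, a repressor with a daily rhythm, gave 0.28 ± 0.07 (SE, adjusted p = 0.119). Glucocorticoid-responsive genes were positive in 19 of 24, with a median of 0.07, and Fkbp5, the co-chaperone of the glucocorticoid receptor, was at 22.9 ± 2.74 and 27.1 ± 4.14 CPM (SD, n = 5 each, adjusted p = 0.474). Bdnf, a growth factor released with activity, was at 37.4 ± 3.4 and 35.02 ± 4.1 CPM, with an adjusted p of 0.814.

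Genes of insulin and mTOR signalling were positive in 17 of 20, with a median of 0.09. Foxo3, a transcription factor held out of the nucleus by insulin signalling, was at 98.3, 106.4, 108.3, 98.0 and 93.7 CPM on water and 115.6, 124.0, 131.6, 107.3 and 144.5 CPM on antibiotics. Antibiotics replicate 4 fell within the water range, and the difference of 0.30 ± 0.07 (SE) had an edgeR adjusted p of 0.0671. Genes of cholesterol synthesis were negative in 20 of 23, with a median of -0.13, and those of chaperones in the endoplasmic reticulum in 16 of 19, with a median of -0.09. For Manf, a secreted stress protein of that compartment, the means were 27.8 ± 3.26 and 22.6 ± 1.53 CPM (SD, n = 5 each, adjusted p = 0.163).

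**Figure D5:**
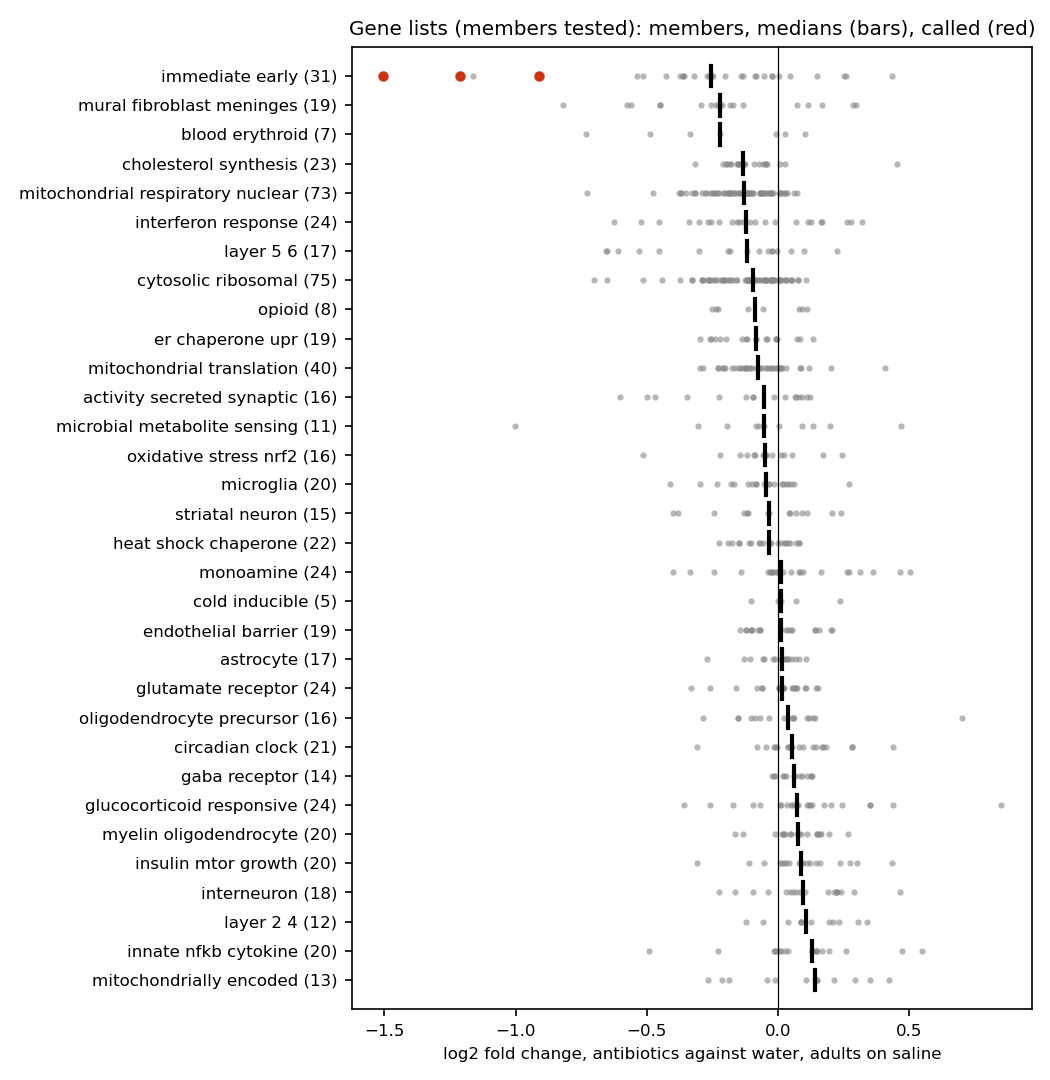
Log2 fold change of antibiotics against water in adults on saline (horizontal axis) for every tested member of the gene lists with at least 5 members tested. Grey dots are genes, black bars list medians and red dots the genes that passed, with the number tested in brackets. Red appears only in the immediate early list, whose median is -0.26, and the medians of the other lists lie between -0.22 and 0.14.

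Just outside the threshold stood genes of several kinds. Fabp3, a carrier of fatty acids, was at 55.4 ± 2.40 and 45.2 ± 2.96 CPM (SD, n = 5 each), without overlap, with an adjusted p of 0.0540.

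Lifr, the receptor of leukaemia inhibitory factor, was at 37.1, 34.7, 32.5, 33.4 and 42.5 CPM on water and 38.6, 55.2, 55.3, 38.7 and 58.2 CPM on antibiotics, with an edgeR adjusted p of 0.0540. Its antibiotics libraries split, 2 of them within the water range and 3 above it. Cdh12, a cadherin of neurons, had a difference of 0.62 ± 0.14 (SE, adjusted p = 0.0611). Sorbs3, an adaptor at sites of cell adhesion, Ints6, a subunit of the Integrator complex, and Rab30, a small GTPase of the Golgi, had non-overlapping groups with differences of 0.40, 0.36 and 0.34 on the log2 scale and adjusted p-values of 0.0671, 0.0671 and 0.0927. Sntb2, a syntrophin, and Lgi3, a secreted neuronal protein, had differences of 0.39 and 0.41, with adjusted p-values of 0.0671 and 0.0927, and their groups overlapped.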

How the data were processed

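Per the labels' protocols, polyadenylated RNA was extracted on Qiagen columns and made into libraries with an ABclonal kit. The deposited file is 1 table of raw counts, not normalized, with 56980 genes and 40 libraries. The submitters' processing notes name STAR 2.7.10a, DESeq2 and mm10 without their roles. The sources used here name neither the annotation nor the strand setting of the counts. Symbols were matched for 91.4% of identifiers without version, and the coordinates printed are those of RefSeq promoter windows on GRCm38.p6, not of the unnamed annotation behind the counts.

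Counts were analysed with edgeR 4.0.16 in R 4.3.3: filterByExpr (minimum count 10, minimum total 15), TMM scaling and a robust quasi-likelihood fit of all 40 libraries with 1 coefficient per group. CPM values are TMM-scaled. The biological coefficient of variation was 9.14%. SEs are the absolute log2 fold change over the root of F. The code was tested on simulated data. Library pairs within a group differed by more than sampling noise. Genes were named by a rule: those that passed, the 10 with the smallest p in each direction and the 2 with the smallest p in each list, with Oprm1, Penk, Fos, Fkbp5, Bdnf and Mbp whatever their p. One gene that this rule names is not reported here. Further immediate early genes and relatives of genes that passed were added after their values were seen. The comparison, lists, rule and alternatives were all chosen with earlier results of these data known.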

Additional observations from a re-analysis of the deposited data

Results flagged for a closer look

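Among 250 sets of 5 libraries examined, 19 (7.6%) held a library whose gap to its nearest neighbour exceeded Dixon's 95% critical value of 0.71, where chance gives about 1 in 20. On water, replicate 5 accounted for 7 of these, standing above the other 4 libraries. Its levels were 12.5 CPM for Ccn1, 22.5 CPM for Sorbs3, 0.542 CPM for AC167245.1, 33.5 CPM for Manf, 30.4 CPM for Mgp, 38.7 CPM for Trib1 and 74.8 CPM for Chordc1. Water replicate 4 was low for Fabp3 at 51.2 CPM and high for Pde10a at 78.6 CPM. Water replicate 1 was low for Jun at 50.1 CPM and high for Tjp1 at 109.5 CPM.

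In the antibiotics group, replicate 4 was high for Relb at 6.09 CPM, Dusp1 at 49.7 CPM and Junb at 127.8 CPM. Antibiotics replicate 2 was low for Bhlhe40 at 169.6 CPM and high for Nppc at 5.54 CPM, and replicate 3 was low for Enpp6 at 2.03 CPM. Antibiotics replicate 5 was high for Fkbp5 at 34.3 CPM. The total count of antibiotics replicate 1, at 10.22 M, was above the others of its group.

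The antibiotics effect differed between adults and adolescents on saline in 4 genes, by the interaction test on all 40 libraries. The log2 difference of effects was 4.68 for AC167245.1, which lay near the floor, 0.71 for Csmd3, 0.53 for Fcho2 and 0.46 for Phc3. None of the 4 passed in the fit of the saline groups alone, and 0 genes passed in some fits that left out a single library.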

How the results depend on the processing

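The number of genes that passed in the adult effect (9), in the age difference (4) and in the injection difference (0) depended on the processing. Without a filter on low counts they were 78, 49 and 15, with DESeq2 51, 42 and 1, and with 3 surrogate variables 151, 73 and 10. With limma-voom the adult effect gave 14, and a fit of the compared groups alone gave 15 in the adult effect and 1 in the age difference. The offset for length and GC content, added after the data were seen, gave 1 in the age difference. Of the 9 adult calls 2 were higher, against 28 of 78 without a filter, 20 of 51 in DESeq2 and 68 of 151 with surrogate variables. In the age difference, all 4 were higher, against 35 of 73 with surrogate variables and 5 of 10 with the replicate block. RLE scaling and a filter of at least 1 CPM in 5 libraries kept each number within 1.5 times. Leaving out each library in turn gave 2 to 46 for the adult effect, 0 to 11 for the age difference and 0 to 1 for the injection difference. Of the 9 genes, 7 were among those that passed in DESeq2 and in the fit of the compared groups alone, and all 9 under the other alternatives with all libraries. In DESeq2, Ccn1 and 1110006O24Rik were given no adjusted p. In the fit of the compared groups, Mex3b and Rgs2 had edgeR adjusted p-values of 0.0763 and 0.0849.

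With a replicate block (the replicate number as a term within each age), 33, 10 and 2 genes passed, and 5 immediate early genes were called lower, as they were without a filter, against 3. The labels do not say that a number pairs libraries. Same-numbered deviations correlated at -0.05 to 0.11, and 3 of 10 libraries correlated best with their own number.

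Direction was checked for 149 genes, the named genes, all early genes and relatives of the genes that passed. It turned under at least 1 alternative in 18, 4 of them early genes. None of the 18 had passed, and their log2 differences were at most 0.134 in size. Ier5 was at -0.0022 without a filter, -0.000176 in DESeq2, -0.0075 with the replicate block, -0.0066 with surrogate variables and -0.0071 with the offset. Btg3 was at 0.00011 with the filter of at least 1 CPM, 0.034 in limma-voom and 0.00732 with surrogate variables, and Jund at 0.0078 with surrogate variables and 0.013 with the offset. Without single libraries the log2 difference ranged from -0.064 to 0.056 for Ier5, -0.070 to 0.087 for Btg3, -0.081 to 0.030 for Jund, -0.26 to 0.090 for Nr4a3, -0.17 to 0.0031 for Fosl2, -0.035 to 0.022 for Mex3c, -0.074 to 0.16 for Myl12b, -0.00995 to 0.051 for Myh10, -0.24 to 0.10 for Gadd45a, -0.021 to 0.16 for Penk and -0.040 to 0.14 for Mbp. With about 10 M counts a library, transcripts near 0.3 CPM rest on a few counts each, and the cause of the changed numbers was not tested.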
